A study of Mus musculus with 3 samples.

Results

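The genes of the Wnt pathway that act outside and at the surface of the cell, together with the nuclear factors that read the signal, were compared across 3 sorted cell populations. The set holds the Wnt ligands, the Frizzled receptors and their co-receptors Lrp5 and Lrp6, the R-spondins and their Lgr receptors, the secreted antagonists of the Dkk, Sfrp and Wif families, the TCF/LEF transcription factors and the target gene Axin2. Members were chosen by gene symbol, through the RefSeq transcript that each array probe carries. This found 53 genes, measured by 64 probes, of 20145 genes that could be named on the array, and no RefSeq gene whose symbol fits was missing from it.

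The arrays come from a study that asked whether mouse embryonic stem (ES) cells can be turned into cells like those of the medial ganglionic eminence (MGE), the ventral forebrain region where most cortical interneurons are born. ES-GFP+ and ES-GFP- cells were the sorted GFP-positive and GFP-negative cells of one culture of J14 cells, a male ES cell line of 129S4/SvJae origin that carries an Lhx6-GFP BAC transgene and, by the labels, a lentiviral 692-mCherry enhancer reporter. The line was grown as floating aggregates to day 12 of differentiation, with 100 ng/ml of the Wnt antagonist Dkk-1 on day 0 and 6 nM of the Smoothened agonist SAG on days 3 and 6, and aggregates were pooled before sorting. MGE-GFP+ cells were sorted from the MGE of female Lhx6-GFP BAC embryos of CD1 background at embryonic day 12.5, which received neither agent. In this transgene the Lhx6 locus, active in cells that leave the MGE progenitor zone, drives GFP, so the GFP-negative gate held every other cell of the aggregates. Both ES populations had been exposed to Dkk-1, so that neither is a control for it, and MGE-GFP+ cells differ from them in strain, sex, origin and treatment at once, which cannot be told apart here.

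Wnt proteins are secreted, lipid-modified signals that bind Frizzled receptors. With Lrp5 or Lrp6 as co-receptor they stabilize β-catenin, which enters the nucleus and turns on genes bound by TCF/LEF factors, and R-spondins prolong the signal through Lgr4, Lgr5 and Lgr6. In the forming telencephalon Wnt signals come mainly from the dorsal midline and favor dorsal fates, and they also keep progenitors dividing, which is why an early Wnt antagonist is used when ventral forebrain cells are made from ES cells.

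Each population was hybridized to 1 array, so that no test between populations, no SD between replicates and no p-value is possible, and every comparison below is of 1 array with 1 array. A level is the log2 background-subtracted intensity of a gene minus the 75th percentile of the mouse probes of that array, so that 0 is that percentile. Scaling to the 50th percentile in its place shifts every log2 difference by -0.44 for ES-GFP+ against ES-GFP-, 0.75 for MGE-GFP+ against ES-GFP+ and 0.30 for MGE-GFP+ against ES-GFP- cells, so that a gene described as level is level at the scaling used. Levels were compared between populations for 1 gene at a time and not between genes, since probes differ in brightness. Repeat spots of a probe had SDs of 0.139 to 0.144 on the log2 scale, and a difference of 0.40 (1.32-fold) equals 2 SDs of a difference. This covers the printing and reading of an array and leaves out the spread between cultures, embryos, sorts and amplifications. In sorted bulk RNA, fewer cells that express a gene and less RNA per cell cannot be told apart. The low end of the ES-GFP+ array stood apart: of 106 probes for adenovirus and ERCC sequences, which match no mouse transcript, 86 were called well above background on it, against 34 on each of the other arrays, and their median intensity was 69.9 on the ES-GFP+, 11.5 on the ES-GFP- and 7.73 on the MGE-GFP+ array. The 95th percentile of these control probes lay at a log2 level of -0.99 in ES-GFP+, -2.02 in ES-GFP- and -1.92 in MGE-GFP+ cells. A gene whose mean over its probes does not exceed it is described as within the control range on that array. A single probe of such a gene can still exceed it. A probe not well above background on one side of a comparison was raised to the lowest detected level of that array where it lay below that level. Otherwise it kept its own value. The difference of its gene is given as "at least", and no value was given to a probe whose detected side was not the higher one.

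Of the 53 genes, 47 were well above background in ES-GFP+, 46 in ES-GFP- and 41 in MGE-GFP+ cells, and 10, 31 and 15 respectively exceeded the control range. These are 18.9%, 58.5% and 28.3% of the Wnt genes, where 43.7%, 54.7% and 49.6% of all 20145 named genes exceeded it on the same arrays. The control range began higher on the ES-GFP+ array, so the count of 10 there and the 31 of ES-GFP- cells are not on an equal footing, while the ranges of the ES-GFP- and MGE-GFP+ arrays began within 0.10 of each other. Genes above the range on all 3 arrays were the 8 genes Fzd3, Lgr6, Lrp5, Lrp6, Sfrp1, Wnt5a, Wnt6 and Wnt7a. On none of the arrays did 21 genes exceed it, and 4 of these (Dkk2, Rspo4, Wnt3a and Wnt10a) were not well above background anywhere.

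**Figure D1:**
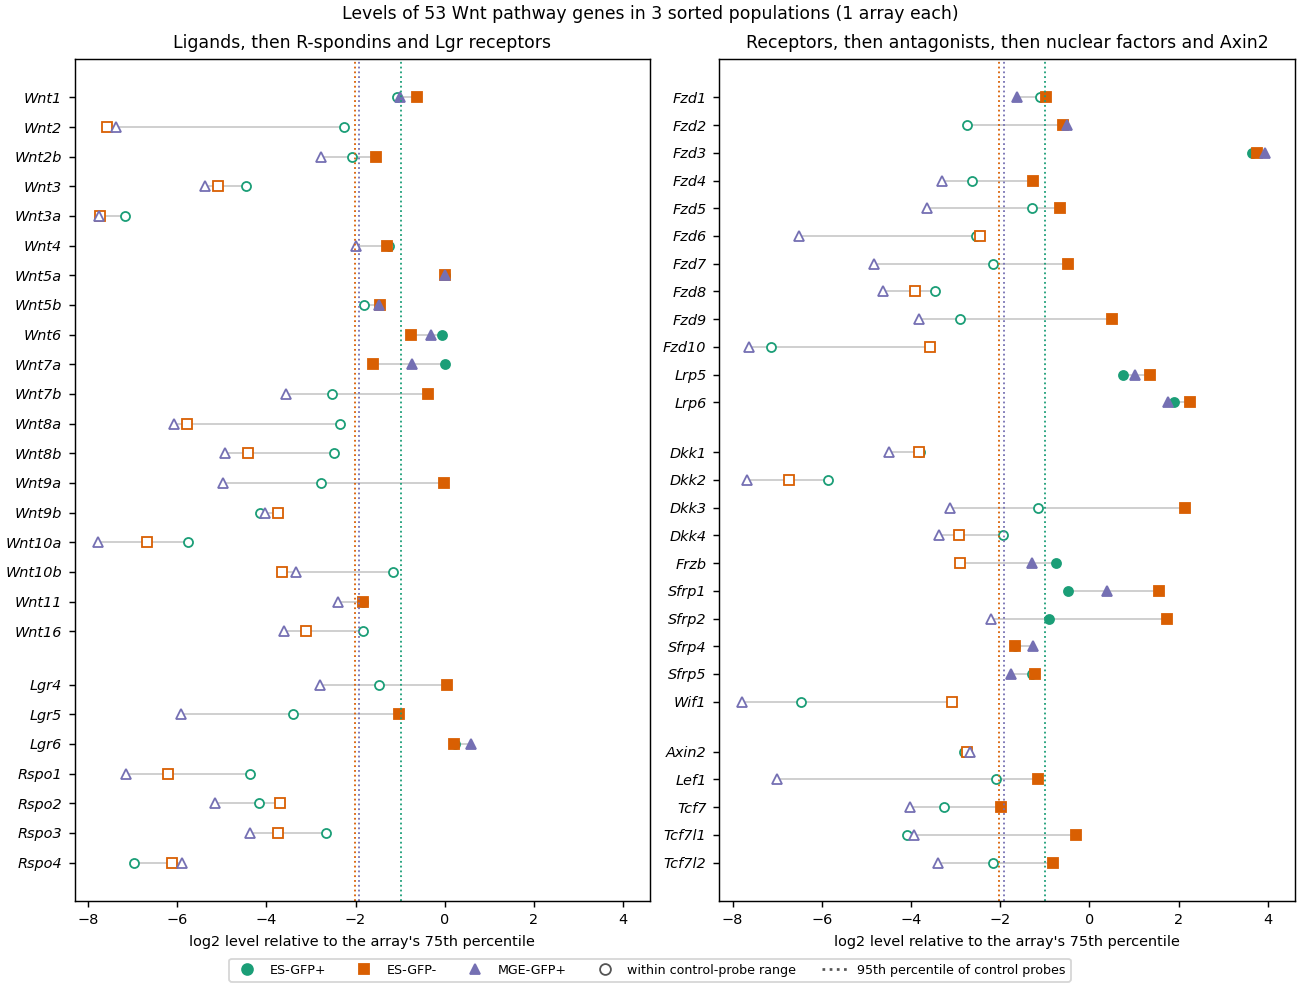
Log2 level of each of the 53 genes, relative to the 75th percentile of its array, in ES-GFP+ (circles), ES-GFP- (squares) and MGE-GFP+ cells (triangles), 1 array each. Open symbols lie within the range of the control probes, whose 95th percentile is the dotted line of the same color (-0.99, -2.02 and -1.92), and 10, 31 and 15 symbols are filled in the 3 populations.

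Between the populations of the aggregates, 16 of the 49 Wnt genes with a value were at least 2-fold lower in ES-GFP+ than in ES-GFP- cells, and 9 were at least 2-fold higher. Of the 18655 genes with a value on the whole array, 6.40% were at least 2-fold lower and 24.0% at least 2-fold higher, so the lower Wnt genes (32.7%) were above the background share and the higher ones (18.4%) below it. The median log2 difference of the Wnt genes was -0.35, beside 0.27 over all genes. Of the 9 higher genes, 7 lay within the control range on both arrays, where the ES-GFP+ array was brighter also for the control probes, whose part in this was not tested. The other 2, Wnt7a and Frzb, exceeded the range in ES-GFP+ cells, as 14 of the 16 lower genes did in ES-GFP- cells. MGE-GFP+ cells compared with ES-GFP- cells, a comparison that uses the same ES-GFP- array, had 21 of 46 Wnt genes at least 2-fold lower and 1 higher, where 17.2% and 9.90% of all genes were, with a median of -0.69 beside -0.06.

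Between the GFP-positive populations, 19 of 47 Wnt genes were at least 2-fold lower in MGE-GFP+ than in ES-GFP+ cells and 1 was higher. The background shares were 32.2% and 5.48%, and the Wnt median was -0.76 beside -0.36 over all genes, so this count of lower genes was near its background. It also depended on how the arrays were scaled, falling to 8 after quantile normalization and to 5 in the authors' deposited log2 values. Of the 19 lower genes only Sfrp2 exceeded the control range of the ES-GFP+ array.

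**Figure D2:**
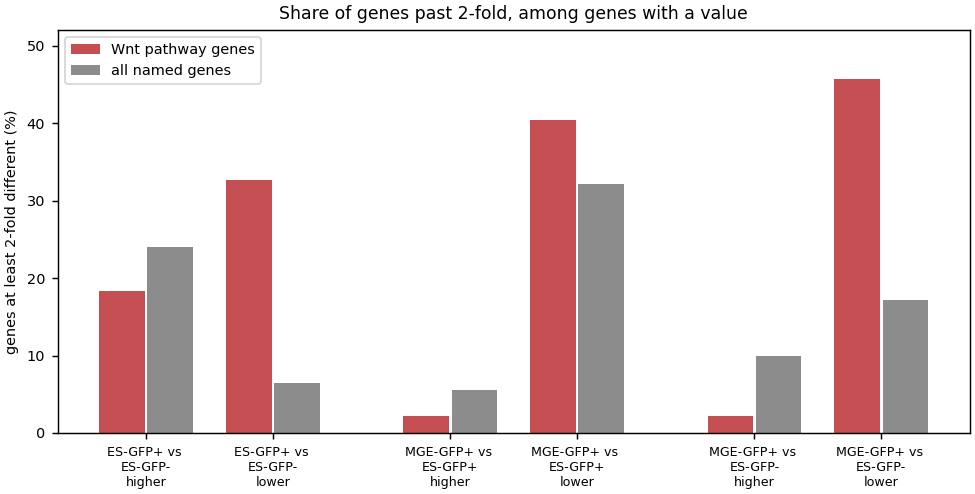
Percent of genes at least 2-fold higher or lower in each comparison, for the 53 Wnt genes and for all named genes, counted over genes with a value; each population is 1 array, so there are no error bars. Among Wnt genes 32.7% were lower in ES-GFP+ than in ES-GFP- cells against 6.40% of all genes, and 45.7% were lower in MGE-GFP+ than in ES-GFP- cells against 17.2%.

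Of the 19 ligands, Wnt7b and Wnt9a differed in one direction in both comparisons with ES-GFP- cells and Wnt7a in the other. Wnt9a was at -2.79 in ES-GFP+, -0.02 in ES-GFP- and -4.97 in MGE-GFP+ cells, high only in the GFP-negative cells and within the control range in the other 2 populations. It was 6.79-fold lower in ES-GFP+ and 30.8-fold lower in MGE-GFP+ than in ES-GFP- cells. Wnt7b, a ligand known for β-catenin signaling in the developing brain, was at -2.53, -0.38 and -3.56 in the same order, which puts both GFP-positive populations within the control range. The differences from ES-GFP- cells were 4.44-fold and 9.08-fold, and its lower value in MGE-GFP+ than in ES-GFP+ cells (-1.03 on the log2 scale) turned to 0.16 with quantile normalization and 0.20 in the deposited values. Wnt7a, the close relative of Wnt7b, was at 0.01 in ES-GFP+, -1.60 in ES-GFP- and -0.75 in MGE-GFP+ cells. This gene was above the control range everywhere and, at this scaling, highest in ES-GFP+ cells, by 3.05-fold over ES-GFP- cells, and MGE-GFP+ cells were 1.81-fold above ES-GFP- cells. The log2 difference of Wnt7a between MGE-GFP+ and ES-GFP+ cells ran from -0.75 to -0.004 over the settings.

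Other ligands above the control range were closer together. Wnt6 was at -0.06 in ES-GFP+, -0.76 in ES-GFP- and -0.32 in MGE-GFP+ cells, so that both GFP-positive populations lay above ES-GFP- cells, by 1.63-fold and 1.36-fold. Wnt5a, which mostly signals without β-catenin, was at -0.01, -0.01 and 0.01 and did not differ beyond the repeat-spot spread in any comparison. Wnt5b was at -1.81, -1.46 and -1.48, also within that spread throughout. Wnt1, a ligand of the dorsal midline and the midbrain-hindbrain border, was at -1.08 in ES-GFP+, -0.62 in ES-GFP- and -1.01 in MGE-GFP+ cells, the ES-GFP+ value being within the control range and 1.38-fold below ES-GFP- cells. That value is a mean over probes, and the brighter probe of Wnt1 exceeded the range in ES-GFP+ cells, at -0.52. Wnt2b, a ligand of the cortical hem, was at -2.07, -1.55 and -2.77 and exceeded the control range in ES-GFP- cells only. It was 2.33-fold lower in MGE-GFP+ than in ES-GFP- cells, and 1.43-fold lower in ES-GFP+ cells. Wnt4 (-1.25, -1.30 and -1.99) and Wnt11 (-1.83, -1.83 and -2.39) likewise exceeded the range in ES-GFP- cells alone, where the ES-GFP+ values lay within the repeat-spot spread of them at this scaling and those of MGE-GFP+ cells were 1.62-fold and 1.47-fold lower.

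The remaining 9 ligands stayed within the control range on all arrays. Of these, Wnt3a and Wnt10a were not well above background anywhere, and Wnt2 and Wnt8a were well above background in ES-GFP+ cells only, at -2.25 and -2.35. Wnt10b (-1.17 in ES-GFP+, -3.66 in ES-GFP- and -3.34 in MGE-GFP+ cells), Wnt16 (-1.83, -3.12 and -3.61) and Wnt8b (-2.48, -4.42 and -4.94) were likewise at their highest value on the ES-GFP+ array, where the control probes were brighter too. These 5 genes make up 5 of the 6 ligands called at least 2-fold higher in ES-GFP+ than in ES-GFP- cells, the other being Wnt7a, and all 5 lay below the 95th percentile of the control probes on the ES-GFP+ array. Wnt3, a β-catenin ligand, was between -5.37 and -4.46, and Wnt9b between -4.14 and -3.73.

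Among the Frizzled receptors, Fzd2, Fzd4, Fzd7 and Fzd9 were lower in ES-GFP+ than in ES-GFP- cells. Fzd9, known for its expression in neural progenitors of the hippocampus, was at -2.90 in ES-GFP+, 0.50 in ES-GFP- and -3.82 in MGE-GFP+ cells. This was 10.5-fold below ES-GFP- cells for ES-GFP+ and 20.0-fold below for MGE-GFP+ cells, both of them within the control range. Fzd7, a receptor of pluripotent and neural progenitor cells, was at -2.17, -0.48 and -4.83 and had the same order. It was 3.22-fold lower in ES-GFP+ and at least 15.0-fold lower in MGE-GFP+ cells, where 1 of its 2 probes was not well above background. Fzd4, a receptor best known from blood vessels, was at -2.63, -1.26 and -3.30, a level 2.60-fold lower in ES-GFP+ and 4.13-fold lower in MGE-GFP+ cells. Fzd4 and Fzd7 also lay within the control range in both GFP-positive populations.

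Fzd2 and Fzd5 also differed between the GFP-positive populations, for Fzd5 with both values within the control range. Fzd2 was at -2.75 in ES-GFP+, -0.59 in ES-GFP- and -0.50 in MGE-GFP+ cells, so that ES-GFP+ cells alone were low, within the control range. Its 2 probes gave opposite signs between MGE-GFP+ and ES-GFP- cells (-0.76 and 0.95), and these cannot be ordered. ES-GFP+ cells were 4.47-fold below ES-GFP- and 4.77-fold below MGE-GFP+ cells, and the last difference was 1.13 on the log2 scale by 1 probe and 3.38 by the other. Fzd2 was the single Wnt gene at least 2-fold higher in MGE-GFP+ than in ES-GFP+ cells. Fzd5, a receptor with a known role in the ventral forebrain and eye field, was at -1.29, -0.67 and -3.64. By the mean over its probes it was above the control range in ES-GFP- cells only. It was lowest in MGE-GFP+ cells, 5.12-fold below ES-GFP+ and 7.87-fold below ES-GFP- cells. The log2 difference between the GFP-positive populations ran from -2.36 to -0.96 over the settings. Its 2 probes disagreed between the ES populations, with log2 differences of 0.07 and -1.31, and the first was above the control range in ES-GFP+ cells, at -0.68.

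Fzd3, Lrp6, Lrp5 and Fzd1 differed by under 2-fold in every comparison at this scaling. Fzd3, which guides axons through the planar polarity branch of the pathway, was at 3.65 in ES-GFP+, 3.77 in ES-GFP- and 3.94 in MGE-GFP+ cells, within the repeat-spot spread in every comparison. Lrp6, the main co-receptor, was at 1.90, 2.25 and 1.76, and Lrp5, its relative, at 0.76, 1.37 and 1.02. For both the ES-GFP- value was highest, by 1.27-fold and 1.53-fold over ES-GFP+ cells, and only that of Lrp5 passed 2 SDs of repeat spots. The 2 probes of Lrp6 gave opposite signs in both comparisons with MGE-GFP+ cells. Fzd1 was at -1.12, -0.96 and -1.62, and was 1.57-fold lower in MGE-GFP+ than in ES-GFP- cells. Fzd6, Fzd8 and Fzd10 stayed within the control range on all arrays. Fzd6 was detected in both ES populations, at -2.54 and -2.46, and not in MGE-GFP+ cells, which were at least 8.21-fold below ES-GFP+ cells, while Fzd10 was detected in ES-GFP- cells alone, at -3.58.

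**Figure D3:**
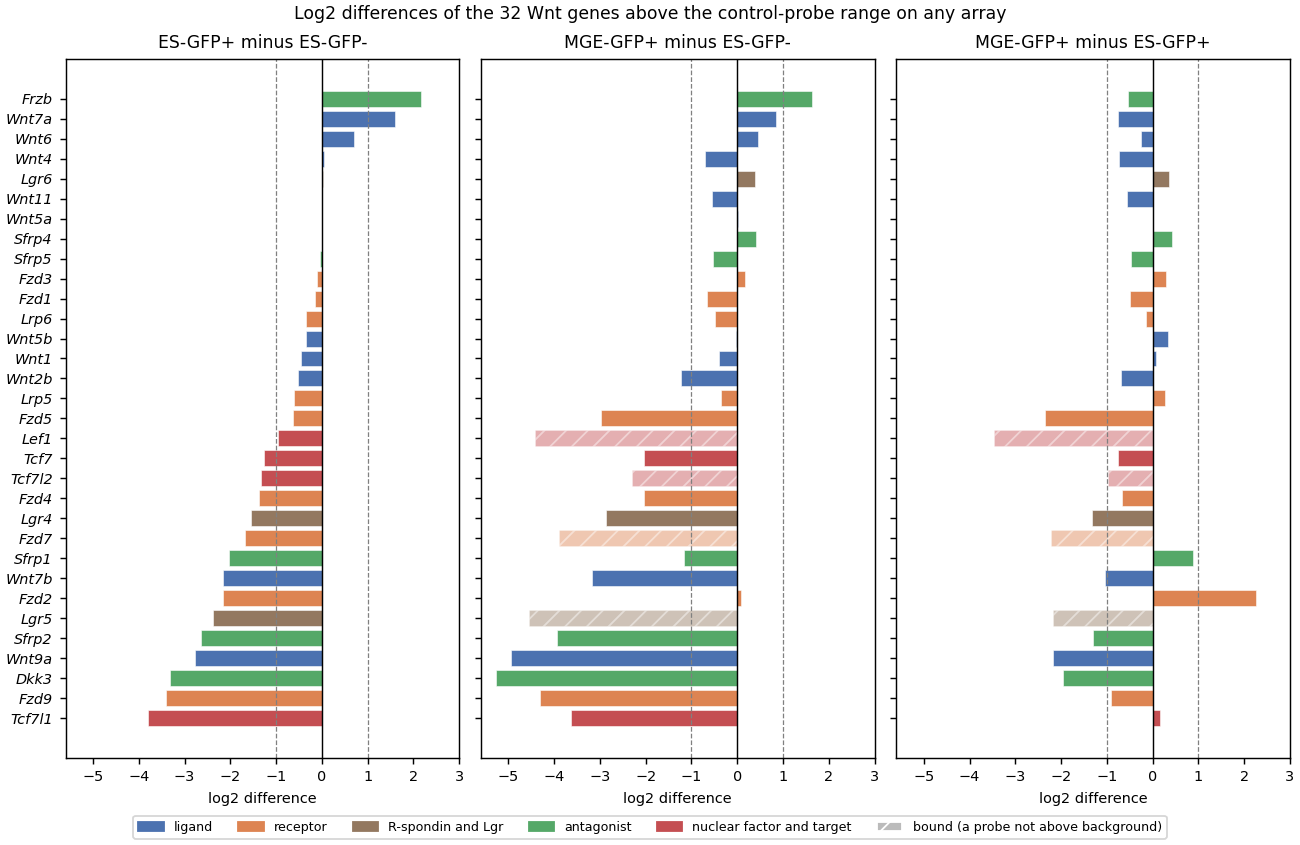
Log2 differences of the 32 Wnt genes that exceeded the control range on any array, for 3 comparisons that share arrays with each other; bars are colored by role, hatched bars are lower bounds of the difference and dashed lines mark 2-fold. The longest bars to the left are Tcf7l1 (-3.79) between the ES populations and Dkk3 (-5.27) between MGE-GFP+ and ES-GFP- cells.

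The receptors that amplify Wnt signals through R-spondins showed the pattern of the Frizzled genes for 2 of 3. Lgr5, a target gene of the pathway and a marker of stem cells in several tissues, was at -3.41 in ES-GFP+, -1.04 in ES-GFP- and -5.91 in MGE-GFP+ cells, where it was not well above background. It was 5.18-fold lower in ES-GFP+ and at least 23.3-fold lower in MGE-GFP+ than in ES-GFP- cells. Lgr4 was at -1.48, 0.06 and -2.81, which is 2.90-fold and 7.28-fold lower in the same comparisons. Lgr4 and Lgr5 lay within the control range in both GFP-positive populations. The third receptor, Lgr6, was at 0.22, 0.20 and 0.59 and stayed within 1.31-fold in every comparison at this scaling. The 4 R-spondin genes were within the control range on all arrays. Rspo3 was at -2.67 in ES-GFP+, -3.73 in ES-GFP- and -4.36 in MGE-GFP+ cells, all within the control range, and its 2.09-fold difference between the ES populations came to 0.00 on the log2 scale in the deposited values. Rspo2 ranged from -5.14 to -3.69, Rspo1 was detected in ES-GFP+ cells alone, at -4.36, and Rspo4 nowhere.

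Among the secreted antagonists Dkk3, Sfrp1 and Sfrp2 were lower in the GFP-positive populations than in ES-GFP- cells, and Frzb was higher. Dkk3, a divergent Dickkopf protein whose action on Wnt signals varies between cells, was at -1.16 in ES-GFP+, 2.15 in ES-GFP- and -3.12 in MGE-GFP+ cells. It was high in ES-GFP- cells and within the control range in both GFP-positive populations, 9.92-fold lower in ES-GFP+ and 38.6-fold lower in MGE-GFP+ cells. Sfrp2, a Wnt-binding protein made by neural progenitors, was at -0.91, 1.74 and -2.20, or 6.27-fold and 15.4-fold below ES-GFP- cells. Its MGE-GFP+ value lay within the control range. Sfrp1, another Wnt-binding protein of neural progenitors, was at -0.49, 1.55 and 0.40, above the control range in all populations. It was 4.11-fold lower in ES-GFP+ than in ES-GFP- cells and 2.23-fold lower in those of the MGE, which were 1.84-fold above ES-GFP+ cells.

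Frzb, a relative of the Sfrp proteins that also binds Wnts outside the cell, went the other way. It was at -0.74 in ES-GFP+, -2.91 in ES-GFP- and -1.29 in MGE-GFP+ cells, above the control range in the GFP-positive populations and within it in ES-GFP- cells. It was 4.50-fold higher in ES-GFP+ and 3.08-fold higher in MGE-GFP+ than in ES-GFP- cells, the single Wnt gene at least 2-fold higher in the latter comparison. Between the GFP-positive populations its log2 difference was -0.55 and ranged up to 0.20 over the other settings, so no order of these 2 can be given.

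Sfrp4 (-1.68 in ES-GFP+, -1.67 in ES-GFP- and -1.26 in MGE-GFP+ cells) and Sfrp5 (-1.28, -1.23 and -1.76) did not differ between the ES populations beyond the repeat-spot spread at this scaling. Dkk1, the gene of the antagonist that had been added to the culture as protein, was within the control range on all arrays, at -3.79 in ES-GFP+, -3.82 in ES-GFP- and -4.50 in MGE-GFP+ cells. The log2 difference between the ES populations was 0.03 as reported, -1.36 with quantile normalization and -0.50 in the deposited values, so no order can be given for Dkk1. Dkk4 was between -3.38 and -1.95, Wif1 was detected in ES-GFP- cells alone at -3.08, and Dkk2 on no array.

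All 4 genes of the TCF/LEF family were lower in the GFP-positive populations than in ES-GFP- cells. Their values in the GFP-positive populations, as means over the probes of a gene, all lay within the control range. Tcf7l1, the member that mostly represses its targets and is known from ES cells and progenitors, was at -4.10 in ES-GFP+, -0.30 in ES-GFP- and -3.93 in MGE-GFP+ cells. Both GFP-positive populations lay within the control range, 13.9-fold and 12.4-fold below ES-GFP- cells, and their own difference ran from 0.17 to 2.10 over the settings. Lef1, an activator and itself a target of the pathway, was at -2.10, -1.15 and -7.01, where the last is not well above background. It was 1.93-fold lower in ES-GFP+ and at least 21.4-fold lower in MGE-GFP+ cells. Tcf7 was at -3.25, -1.98 and -4.02, or 2.42-fold and 4.10-fold lower, with its 2 probes in agreement to within 0.61 in every comparison. Tcf7l2, with 3 probes, was at -2.15, -0.83 and -3.38. It was 2.51-fold lower in ES-GFP+ and at least 4.90-fold lower in MGE-GFP+ cells, its probes running from -2.25 to -0.46 on the log2 scale in the first comparison. Its brightest probe was at -0.36 in ES-GFP+, 0.92 in ES-GFP- and -0.79 in MGE-GFP+ cells, above the control range on all arrays. By that probe the GFP-positive populations were 2.42-fold and 3.27-fold below ES-GFP- cells. Axin2, a negative-feedback gene widely used as a readout of β-catenin signaling, was at -2.80, -2.75 and -2.69, within the control range on all arrays. The difference between MGE-GFP+ and ES-GFP+ cells was 0.12 as reported and up to 1.28 with quantile normalization, and that between the ES populations was -0.05 and down to -0.94. Its 2 probes gave opposite signs in all 3 comparisons, so that no direction can be given for Axin2.

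Counted by role, at least 2-fold lower in ES-GFP+ than in ES-GFP- cells (6.40% of all genes) were 2 of 17 ligands with a value, 5 of 12 receptors, 2 of 6 R-spondin and Lgr genes, 4 of 9 antagonists and 3 of 5 nuclear factors and target genes. At least 2-fold higher (24.0% of all genes) were 6, 0, 2, 1 and 0 of them, and 5 of the 6 ligands and both R-spondins were within the control range. The medians were 0.04, -0.62, -0.23, -0.05 and -1.27 on the log2 scale. In MGE-GFP+ compared with ES-GFP- cells the lower counts were 4 of 15, 6 of 12, 3 of 5, 4 of 9 and 4 of 5 (17.2% of all genes), and the 1 higher gene was the antagonist Frzb, with medians of -0.39, -1.36, -1.45, -0.68 and -2.29. Ligands had the smallest lower share in both, and the roles were not tested against each other.

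Of the 32 Wnt genes above the control range in either ES population, 14 were at least 2-fold lower in ES-GFP+ cells and 2 higher, where 8.97% and 6.01% of all genes above that range were, and these 16 kept their direction under each of the 7 other settings that gave a value. With every signal raised to the 95th percentile of the control probes, Fzd4, Lgr5 and Tcf7 had no value, since their levels in ES-GFP- cells lay below the ES-GFP+ floor of -0.99. That floor gives no value to a probe whose sign it would turn. For a gene with 1 probe detected on both arrays, the settings with no filter and with the brightest probe repeat the reported value. For such genes these settings could not show a reversal. The sizes were less stable: 10 of the 16 remained at least 2-fold different with that floor. Between MGE-GFP+ and ES-GFP- cells 16 of 32 were lower and 1 higher, beside 15.2% and 11.8% of all genes, and these 17 kept their direction, 11 of them past 2-fold with that floor. Between MGE-GFP+ and ES-GFP+ cells 1 of 16 was lower (Sfrp2) and 1 higher (Fzd2), beside 9.16% and 8.79%. A gene can enter these counts through the population where it is high, which favors genes that differ, so they describe the brighter genes and add nothing to the counts over all genes with a value.

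**Figure D4:**
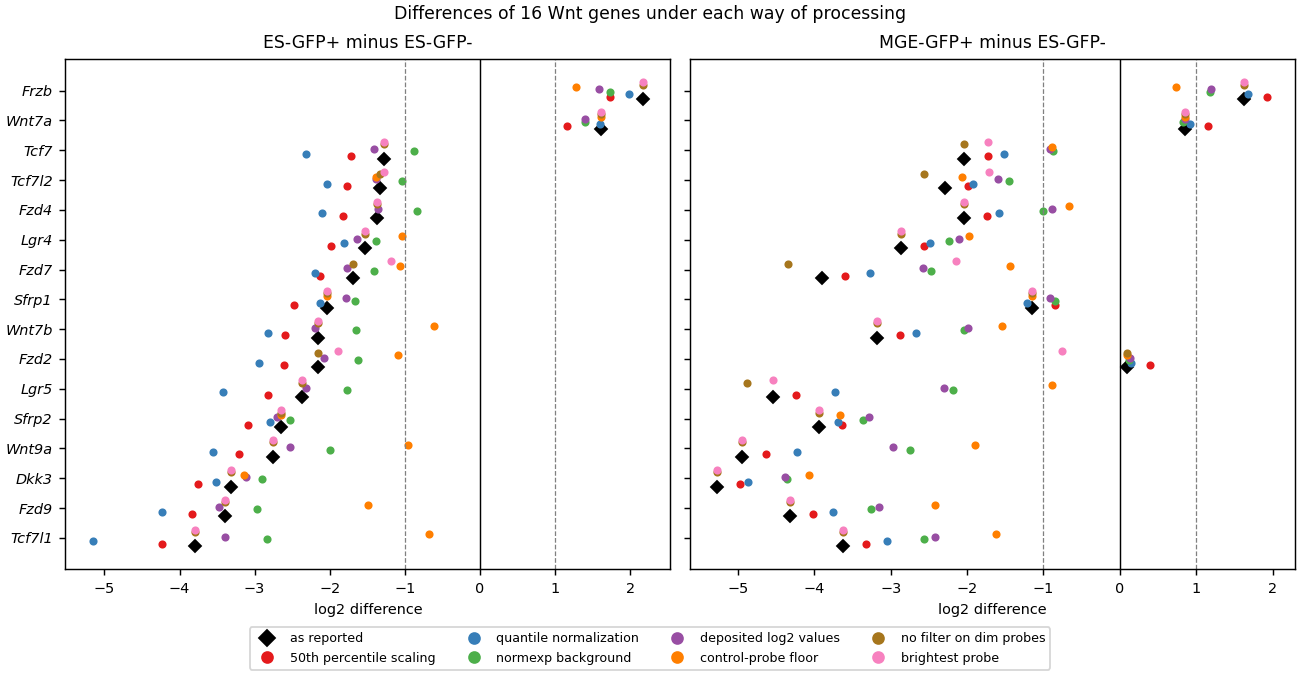
Log2 differences of the 16 Wnt genes above the control range and at least 2-fold different between the ES populations, as reported (black diamonds) and under 7 other settings (colored points), for ES-GFP+ (left) and MGE-GFP+ cells (right) against ES-GFP- cells, 1 array each. In the left panel no point crosses 0, and the control-probe floor, which gives no point for Fzd4, Lgr5 and Tcf7 there, moves Tcf7l1 from -3.79 to -0.68. The floor gives no value to a probe whose sign it would turn.

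Letters that TCF/LEF factors are known to bind were searched for in the promoters of the Wnt genes, since several of these genes are themselves targets of the pathway. RefSeq promoters on build GRCm38.p6, from 250 bases before to 50 after the start, were at hand for 36 of the 53 genes (44 promoters). The letters CTTTGAT were found on either strand in 4.55% of these, beside 3.73% of all 32851 promoters of that length. For the variant that ends in 2 adenines, CTTTGAA, the shares were 2.27% and 5.14%, and for the variant that ends in 2 thymines, CTTTGTT, they were 9.09% and 5.85%. These differ in their last letters, so that no position matches more than 1 of them on a strand, and any of the 3 was present in 6 of 44 promoters of Wnt genes (13.6%) and in 13.9% of all. The genes were Dkk1, Fzd7, Tcf7l2, Wnt3, Wnt5b and Wnt11. Of these, Fzd7 and Tcf7l2 were at least 2-fold lower in both GFP-positive populations than in ES-GFP- cells, and Wnt5b and Wnt11 differed by under 2-fold in every comparison, so that a match was found both with and without a difference in level. Their promoters are printed 5′ to 3′ on the strand of the gene, with the matched letters, or their reverse complement, in capitals. The match begins 130 bases before the start in Fzd7, 14 in Tcf7l2, 71 in Wnt5b and 51 in Wnt11. Tcf7l2, Wnt5b and Wnt11 also had other promoters at hand, which held no match and are not printed.
Fzd7 promoter (chr1:59481897-59482196, plus strand): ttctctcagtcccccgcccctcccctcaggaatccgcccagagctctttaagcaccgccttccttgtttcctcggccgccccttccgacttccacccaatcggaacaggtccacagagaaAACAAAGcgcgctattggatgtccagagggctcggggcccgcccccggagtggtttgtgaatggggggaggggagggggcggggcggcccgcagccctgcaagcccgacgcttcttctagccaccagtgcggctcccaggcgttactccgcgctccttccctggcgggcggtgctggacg
Tcf7l2 promoter (chr19:55895071-55895370, plus strand): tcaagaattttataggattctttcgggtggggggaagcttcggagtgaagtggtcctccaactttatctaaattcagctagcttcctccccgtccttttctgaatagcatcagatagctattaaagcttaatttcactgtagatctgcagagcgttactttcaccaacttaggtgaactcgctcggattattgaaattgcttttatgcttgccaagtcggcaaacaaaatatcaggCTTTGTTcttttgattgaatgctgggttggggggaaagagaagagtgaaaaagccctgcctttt
Wnt5b promoter (chr6:119449337-119449636, minus strand): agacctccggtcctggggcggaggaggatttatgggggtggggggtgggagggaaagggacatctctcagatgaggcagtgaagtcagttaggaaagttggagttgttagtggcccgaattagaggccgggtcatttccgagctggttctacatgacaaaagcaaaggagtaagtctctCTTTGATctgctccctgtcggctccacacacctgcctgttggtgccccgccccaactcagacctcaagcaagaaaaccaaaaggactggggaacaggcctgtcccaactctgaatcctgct
Wnt11 promoter (chr7:98834862-98835161, plus strand): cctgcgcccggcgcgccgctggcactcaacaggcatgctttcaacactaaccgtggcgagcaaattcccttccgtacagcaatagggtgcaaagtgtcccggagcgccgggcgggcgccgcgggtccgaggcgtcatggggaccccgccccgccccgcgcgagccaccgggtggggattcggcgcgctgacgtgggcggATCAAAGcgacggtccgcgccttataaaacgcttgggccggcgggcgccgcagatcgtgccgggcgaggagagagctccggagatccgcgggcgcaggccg
A match is a description of the letters in this window, and binding was not measured.

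Further lists cover the rest of the pathway, and their counts stand beside 6.40% of all genes at least 2-fold lower and 24.0% higher in ES-GFP+ than in ES-GFP- cells, and 17.2% lower and 9.90% higher in MGE-GFP+ than in ES-GFP- cells. The cytoplasmic relay includes Dvl1, Axin1, Apc, Gsk3b and Ctnnb1. Of its 20 genes 1 was at least 2-fold lower and 0 higher in ES-GFP+ than in ES-GFP- cells (median 0.22). In MGE-GFP+ cells 1 was lower and 3 were higher than in ES-GFP- cells (median 0.45). The 3 were Ctnnbip1 and, named after their values were seen, Apc2 and Ctnnb1. Ctnnb1, the gene of β-catenin, was at 4.63 in ES-GFP+, 4.09 in ES-GFP- and 5.29 in MGE-GFP+ cells. It was 1.45-fold and 2.30-fold above ES-GFP- cells. Ctnnbip1, which blocks the contact of β-catenin with TCF factors, was at 1.83 in ES-GFP+, 0.87 in ES-GFP- and 2.64 in MGE-GFP+ cells, 1.95-fold and 3.42-fold above ES-GFP- cells. Of 14 nuclear cofactors 2 were higher and 0 lower, with a median of 0.06, and 3 were higher and 0 lower in MGE-GFP+ than in ES-GFP- cells (median 0.61). The 2 were Bcl9, a β-catenin coactivator, at 1.51, 0.13 and 1.91, and Tle2, a Groucho corepressor, at 0.80, -0.38 and 0.44. In these the GFP-positive populations were both above ES-GFP- cells, by 2.60-fold and 3.43-fold for Bcl9 and by 2.26-fold and 1.76-fold for Tle2.

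Of 11 planar polarity genes 5 were at least 2-fold lower in ES-GFP+ than in ES-GFP- cells and 1 higher, with a median of -0.49, and in MGE-GFP+ cells 5 were lower and 0 higher (median -0.67). Vangl1 was at -3.48 in ES-GFP+, -0.59 in ES-GFP- and -6.24 in MGE-GFP+ cells, and Daam2, a formin that binds Dishevelled, at -3.52, -0.91 and -5.53. Vangl1 was at least 6.91-fold and Daam2 6.08-fold lower in ES-GFP+ than in ES-GFP- cells, and they were at least 23.0-fold and 24.5-fold lower in MGE-GFP+ cells. Both genes lay within the control range in both GFP-positive populations. Prickle2 was the higher gene, at 0.06, -1.13 and -1.80, and 2.29-fold above ES-GFP- cells in ES-GFP+ cells alone. Of 16 secretion and surface genes with a value 1 was lower in ES-GFP+ cells and 3 higher (Ror1, Kremen2 and Znrf3, within the control range and named after their values were seen), with a median of 0.07, or -0.52 over the 9 genes above the control range. In MGE-GFP+ cells 8 of 16 were lower than in ES-GFP- cells and 0 higher (median -1.01). The gene lower in ES-GFP+ cells was Apcdd1, an inhibitor of Wnt receptors, at -1.10, 1.51 and -2.83 (6.09-fold and 20.2-fold), within the control range in both GFP-positive populations. Of 15 other target genes 2 were lower and 5 higher in ES-GFP+ cells, with a median of 0.42, but all 5 lay within the control range, and over the 7 genes above it 2 were lower and 0 higher (median -0.74). In MGE-GFP+ cells 7 of 12 were lower than in ES-GFP- cells and 0 higher (median -1.13). Ccnd1, the cyclin of the G1 phase, was at 0.27 in ES-GFP+, 2.80 in ES-GFP- and 0.40 in MGE-GFP+ cells, so that the GFP-positive populations were 5.77-fold and 5.27-fold below ES-GFP- cells.

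Markers of other cell types moved with these differences. All 13 MGE and interneuron markers, among them Lhx6, Nkx2-1 and Gad1, were above the control range on every array and at least 2-fold higher in both GFP-positive populations than in ES-GFP- cells, with summed levels of 159 times the 75th percentile in ES-GFP+, 38.6 in ES-GFP- and 233 in MGE-GFP+ cells, so the gates fit their labels. Radial glia markers ran the other way, with summed levels of 13.9, 69.2 and 16.8 and 10 of 12 at least 2-fold lower in each GFP-positive population. Of all genes with a value, 24.0% were at least 2-fold higher and 6.40% lower in ES-GFP+ than in ES-GFP- cells. For MGE-GFP+ against ES-GFP- cells these shares were 9.90% and 17.2%. Cell cycle genes had summed levels of 4.31, 17.8 and 9.59, with 2, 11 and 8 of 12 above the control range. Over all named genes 43.7%, 54.7% and 49.6% exceeded the control range in ES-GFP+, ES-GFP- and MGE-GFP+ cells. In the same order, 3, 4 and 1 of 8 genes of the cortical hem and choroid plexus and 2, 7 and 1 of 8 of the midbrain and hindbrain exceeded it. So did 2, 5 and 0 of 8 of mesenchyme and meninges, and 1, 6 and 1 of 6 of pluripotent cells. The hem and mesenchyme counts in ES-GFP- cells were near the share over all genes. The range began higher on the ES-GFP+ array (-0.99 against -2.02), so counts there and in ES-GFP- cells are not on an equal footing. The summed levels of these lists were 4.16, 10.4 and 1.60 for the hem, 2.70, 6.13 and 3.35 for the midbrain and hindbrain (in MGE-GFP+ cells mostly Gbx2, at a log2 level of 1.53, with 5 of the 8 genes not well above background), and 3.94, 5.43 and 0.31 for mesenchyme, where in MGE-GFP+ cells Col1a1, Foxc1 and Twist1 were not well above background. That of the pluripotency genes (310, 305 and 391) came almost wholly from the probe of Nanog, which was near 8.2 or above on all arrays. Endothelial markers exceeded the range for 0, 1 and 1 of 6 genes, microglial ones for 1, 1 and 3 of 6, and erythroid ones for 1, 1 and 2 of 5, with a summed erythroid level of 20.4 in MGE-GFP+ cells. All 8 neuronal genes exceeded it everywhere. The part of these cell types in the differences of the Wnt genes was not tested.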

How the data were processed

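The authors extracted 3 one-colour Agilent arrays (1 slide, 1 scan, 1 array per population) with Feature Extraction, version 10.7.3.1 in the file headers, and deposited spot intensities on a linear scale, background-subtracted and not scaled between arrays. The labels and the methods differ on the amplification kit, the array format and the mCherry reporter, and each file holds the 62976 spots of the larger format. The authors also deposited log2 values, whose scale is not given in the sources used here. They lay within 0.212 of quantile-normalized log2 median signals and served as an alternative.

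Of the 55681 mouse probes, 26582 were named through a RefSeq gene table. Log2 intensity minus the 75th percentile of the array was taken in Python 3.11.15 (pandas 2.3.3) after leaving out 135, 137 and 98 flagged spots on the ES-GFP+, ES-GFP- and MGE-GFP+ arrays (no spot was saturated), and repeat spots and probes of a gene were averaged. A probe well above background on a share under 0.5 of its spots was raised to the lowest detected level if it lay below it. No difference was given where neither array detected it, or where the array that detected it was not the higher one. For comparison, 90.6%, 80.3% and 77.1% of probes were well above background. Precision is limited by the number of arrays. The step that takes differences was tested on simulated data in which all arrays detected the same probes. This did not test the rule for probes detected on one side, or the raised low end of the ES-GFP+ array.

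The alternatives were another percentile, quantile normalization, normexp (limma 3.58.1, offset 50, on median signals as no mean signal column was used here), the deposited values, a floor at the control probes, no filter on dim probes, and the brightest probe. Values are given for every gene above the 95th percentile of control probes on any array, and for the 4 highest and 4 lowest of the 59 other pathway genes above it in either ES population. Those of Ctnnb1 were added after they were seen. Members and lists were chosen with earlier results of these data known.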

Additional observations from a re-analysis of the deposited data

How the results depend on the processing

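No paired analysis was possible because each population is 1 array. Scaling moved the median of all genes: between ES-GFP+ and ES-GFP- cells it was 0.27 as reported, -0.18 with the 50th percentile and 0.00 with quantile normalization, between MGE-GFP+ and ES-GFP+ cells -0.36, 0.40 and 0.05, and between MGE-GFP+ and ES-GFP- cells -0.06, 0.25 and 0.05, and differences are best read against these. Of the 9 Wnt genes at least 2-fold higher in ES-GFP+ than in ES-GFP- cells, the count was 5 with quantile normalization, 4 in the deposited log2 values, 2 with the control-probe floor and 2 over only genes above the control range, a setting chosen after seeing the data. The 16 lower genes became 8 with the control-probe floor. For MGE-GFP+ against ES-GFP+ cells, the 1 higher gene became 7 with the 50th percentile, 7 with quantile normalization, 0 with the control-probe floor and 2 with no filter on dim probes. The 19 lower genes became 12 with the 50th percentile, 8 with quantile normalization, 8 with normexp, 5 in the deposited values, 2 with the floor and 1 over genes above the control range. For MGE-GFP+ against ES-GFP- cells, the 1 higher gene became 2 with the 50th percentile and 0 with the floor, and the 21 lower genes became 11 with the floor. The floor leaves fewer genes that can pass 2-fold. For the other changes the cause was not tested.

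Over all genes with a value, the sign changed under some setting for 11 of 49, 17 of 47 and 8 of 46 genes in the same order of comparisons. Some settings could not reverse a difference: the control-probe floor gives no value to a probe whose sign it would turn. No filter and the brightest probe repeat the reported value for a gene with 1 probe detected on both arrays. Among the 67 differences of at least 2-fold, 425 of 430 recomputed values kept their direction, and 39 of the 469 possible values could not be computed, 34 of them with the control-probe floor, which gave a value for 33 of the 67. The exceptions were Rspo3 between the ES populations (-0.0021 in the deposited values), and, between MGE-GFP+ and ES-GFP+ cells, Fzd8 (0.55 with quantile normalization, 0.36 in the deposited values) and Wnt7b (0.16 and 0.20). Dim genes are limited most, since signal at the level of the control probes on the ES-GFP+ array reached a log2 level of -0.99, and the order of populations is not settled for genes below the control range on all arrays.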
